A study of Mus musculus with 8 samples.

Results

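The hypoxia-inducible factors (HIFs) and the proteins that control them were followed through 10 genes. They were listed by name, with earlier results of these data known. They are Hif1a, Epas1, Hif3a, Arnt, Egln1, Egln2, Egln3, Hif1an, Vhl and Cited2. Each had 1 probe set, so all 10 of the 10 listed were measured among the 24011 named genes of the arrays. The samples were sorted bone marrow cells of adult C57Bl6 mice, with no altered allele or treatment named for either group. The Lin+ group (4 arrays) holds marrow cells sorted for markers of maturing blood lineages. The HSC-enriched group (4 arrays) holds cells sorted to concentrate haematopoietic stem cells (HSCs). By the sample labels these were lineage-negative cells with Sca-1 and Kit (LSK) that carried CD105 and lacked CD48, while the design text of the series has CD150 where the labels have CD105. Both groups are mixtures of cells. Nothing in the labels ties the replicates to separate mice, and the p-values therefore reflect the spread of these samples alone, which could be technical.

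A HIF is a dimer of an oxygen-labile alpha subunit (encoded by Hif1a, Epas1 or Hif3a) and a constitutive beta subunit (encoded by Arnt). With oxygen present, prolyl hydroxylases (Egln1, Egln2, Egln3) mark the alpha subunit for the ubiquitin ligase that contains the Vhl protein, and the asparaginyl hydroxylase encoded by Hif1an blocks its binding of coactivators. Cited2 competes with the alpha subunit for the same coactivators. Much of this control acts on protein and enzyme activity, which transcript levels do not show. In bone marrow the pathway is known for its part in stem cell quiescence and glycolytic metabolism, and Egln3 and Cited2 are themselves known as HIF target genes.

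HIFs bind DNA at a core that reads ACGTG or GCGTG, the hypoxia response element. The 250 bases before the transcription start are printed for 4 members: Egln3 and Hif3a, which rose in HSC-enriched cells, and Hif1a and Egln1, paralogs of them for which no change was called. The sequences are from RefSeq (GRCm38.p6), 5' to 3' on the strand of the gene, and capitals mark a match to either core on either strand.
Egln3 (chr12:54203875-54204124, minus strand): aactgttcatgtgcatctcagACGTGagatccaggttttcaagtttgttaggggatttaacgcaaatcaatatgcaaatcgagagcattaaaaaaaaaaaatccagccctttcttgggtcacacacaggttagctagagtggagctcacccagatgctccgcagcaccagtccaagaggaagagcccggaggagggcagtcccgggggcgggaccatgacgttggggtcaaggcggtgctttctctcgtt
Hif3a (chr7:17062428-17062677, minus strand): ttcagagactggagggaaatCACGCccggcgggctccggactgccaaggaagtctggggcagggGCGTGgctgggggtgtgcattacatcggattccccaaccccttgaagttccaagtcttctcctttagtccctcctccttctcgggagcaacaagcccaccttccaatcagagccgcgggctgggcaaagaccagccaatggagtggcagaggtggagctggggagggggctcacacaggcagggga
Hif1a (chr12:73907617-73907866, plus strand): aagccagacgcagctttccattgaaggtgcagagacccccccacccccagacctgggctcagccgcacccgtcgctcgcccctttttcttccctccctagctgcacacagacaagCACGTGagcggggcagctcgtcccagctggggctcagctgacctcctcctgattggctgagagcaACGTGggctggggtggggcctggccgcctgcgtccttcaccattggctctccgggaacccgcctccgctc
Egln1 (chr8:124949255-124949504, minus strand): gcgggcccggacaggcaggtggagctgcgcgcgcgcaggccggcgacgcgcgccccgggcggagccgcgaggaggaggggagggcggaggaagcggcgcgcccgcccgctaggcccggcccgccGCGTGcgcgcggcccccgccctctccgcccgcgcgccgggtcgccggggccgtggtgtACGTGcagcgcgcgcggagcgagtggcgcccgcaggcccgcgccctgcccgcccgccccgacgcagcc

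The Egln3 window held 1 match, an ACGTG that began 229 bases before the start. Hif3a held 2, at 230 and 186 bases. In Hif1a an ACGTG lay 70 bases before the start, and a palindromic CACGTG, which reads as a core on both strands, began at 135 bases. Egln1 held matches at 126 and 68 bases in a window of 86.0% G and C, against 50.8% in Egln3. RefSeq promoter entries matched 9 of the 10 members, all but Epas1, in 10 windows, of which 8 held at least 1 match. The windows of Vhl and Hif1an held none. Of the 32851 windows of the same length, 38.6% held either core (16.6% ACGTG, 28.2% GCGTG). These matches describe letters and are not measured binding sites. They did not separate the members that rose from the others: the printed windows of Hif1a and Egln1 held matches too.

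Across the members, 3 of 10 were higher in HSC-enriched than in Lin+ cells and 0 were lower (limma across all genes, Benjamini-Hochberg adjusted p under 0.05). Over all genes 27.8% were called, 15.5% higher and 12.4% lower, so 3 of 10 members is a share near that background. Among the 12926 genes with a mean above a background guide, 44.5% were called. The guide, 5.11 on the log2 scale, is the 95th percentile of olfactory receptor genes, which blood cells are not known to use. Of the 10 members 8 lay above it on every array, and of these only Egln3 was called. The values are log2 levels, so a difference of 1 is a 2-fold change. The median difference was 0.04 for the members and 0.02 for all genes. The groups did not overlap for the same 3 members, beside 28.9% of all genes. Differences of 8 members were under 0.5 in size, and the other two were those of Egln3 and Hif3a. In a sorted population, fewer cells that use a gene and less of its RNA per cell cannot be told apart.

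The arrays matched their sort in the antigen genes on the table: Kit, Eng (CD105) and Slamf1 (CD150) rose and Cd48 fell in the HSC-enriched group, while Ly6a (Sca-1) was not analysed here. Markers of several mature lineages fell: 14 of 15 measured neutrophil, 10 of 10 B cell, 8 of 8 erythroid and 11 of 11 monocyte and macrophage genes were called lower, as were 11 of 12 T and NK cell and 7 of 7 eosinophil, basophil and mast cell genes. Megakaryocyte genes went the other way, with 5 of 7 higher and 0 lower and a mean level of 7.08 to 7.65 on HSC-enriched against 5.73 to 6.45 on Lin+ arrays. HSC-enriched replicates 3 and 4 stood apart in the neutrophil genes, with a mean level of 8.98 and 8.88 against 6.62 and 6.57 on replicates 1 and 2 and 11.34 to 11.66 on Lin+ arrays. Replicate 3 was also higher in the B cell genes, at 6.58 against 4.88 to 5.08 on the other HSC-enriched and 9.76 to 10.38 on Lin+ arrays. The part of these cells in the differences below was not tested, and each call of a member or named pathway gene that was lost without replicates 3 and 4 is given with that value. Array medians ran from 5.23 to 5.33, and 4 arrays a group limit the precision.

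**Figure D1:**
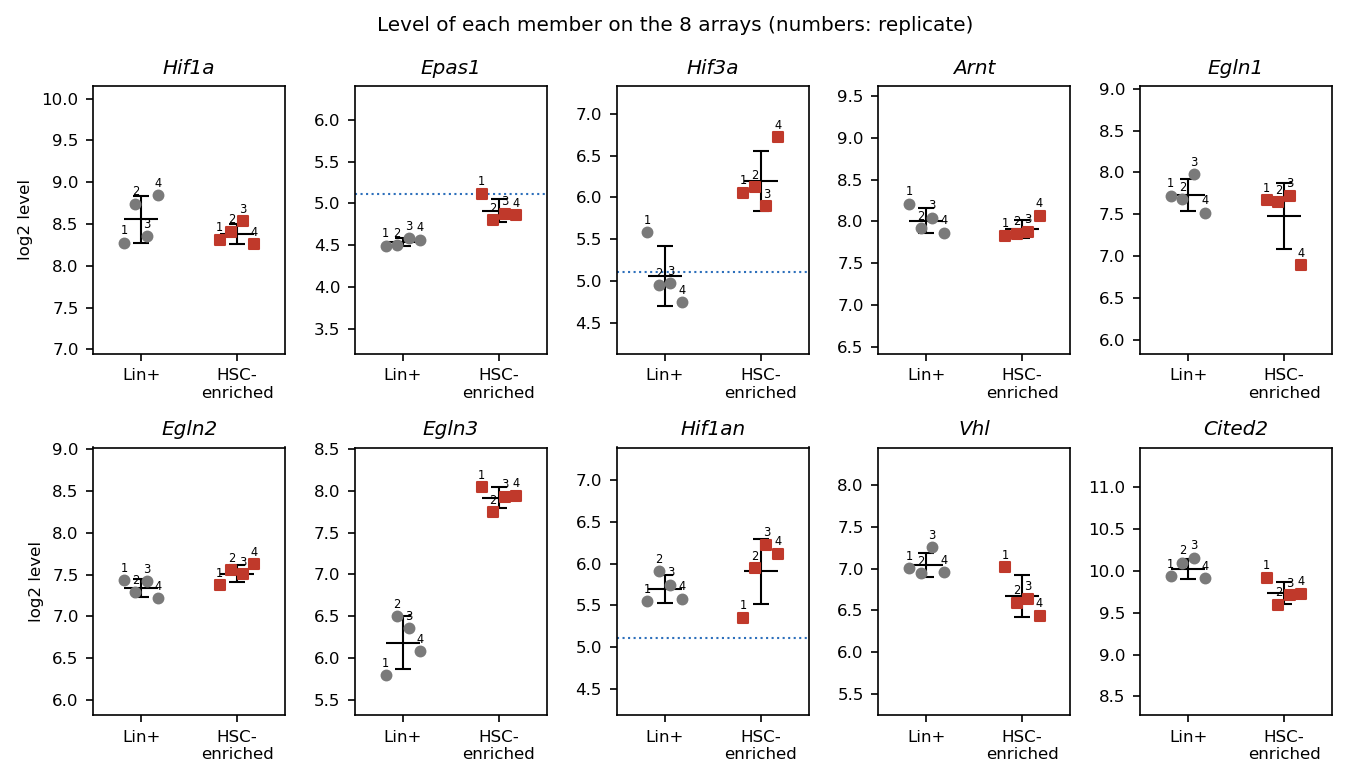
Log2 level of each member on the 8 arrays, with Lin+ in grey circles and HSC-enriched in red squares. Numbers are replicates and bars are the mean and SD of 4 arrays. Each panel spans the same range of log2 units. The dotted line is the background guide at 5.11, which falls within the panels of Epas1, Hif3a and Hif1an only. The groups separate for Egln3 and Hif3a, and for Epas1 with 7 of 8 arrays under the guide.

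Among the alpha subunits, Hif1a was well above the guide in both populations. Its level was 8.28, 8.74, 8.36 and 8.84 on Lin+ replicates 1 to 4 and 8.31, 8.41, 8.53 and 8.26 on HSC-enriched replicates 1 to 4. The groups overlapped, and the Lin+ arrays fell into a pair at 8.28 and 8.36 and a pair at 8.74 and 8.84. The means were 8.56 ± 0.28 and 8.38 ± 0.12 (SD, n = 4), a difference of -0.18 with a 95% interval from -0.50 to 0.15 (limma adjusted p = 0.46). No change in Hif1a was called, and the interval allows a fall of up to 0.50 and a rise of up to 0.15 on the log2 scale.

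Epas1, which encodes the HIF-2 alpha subunit, is best known from endothelial cells. It read 4.49, 4.50, 4.58 and 4.57 on Lin+ and 5.12, 4.80, 4.88 and 4.86 on HSC-enriched arrays. Every HSC-enriched array was above every Lin+ array, yet 7 of the 8 arrays lay under the background guide and the other, HSC-enriched replicate 1, was just above it. The difference was 0.38 ± 0.10 (SE), or 1.30-fold (limma adjusted p = 0.018). The call was lost without HSC-enriched replicates 3 and 4 (0.42, adjusted p = 0.058), and a fold between values this near background cannot be read as the size of a change. Of 8 endothelial genes 3 rose and 1 fell, with mean HSC-enriched levels of 6.49 to 7.03 against 5.53 to 5.72 on Lin+ arrays. Emcn (4.22), Tie1 (3.17) and Egfl7 (1.54) were higher and Pecam1 (-0.35) was lower, while Cdh5 (-0.36), Kdr (0.30), Plvap (0.14) and Stab2 (0.39) did not pass. Their part in the Epas1 value was not tested.

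Hif3a, whose product can oppose the other alpha subunits, read 5.58, 4.95, 4.97 and 4.75 on Lin+ and 6.06, 6.12, 5.89 and 6.72 on HSC-enriched arrays. The groups did not overlap: 3 Lin+ arrays were under the guide, and the 4 HSC-enriched arrays were above it, with replicate 4 highest. Its means were 5.06 ± 0.36 and 6.20 ± 0.36 (SD, n = 4), a 2.19-fold rise (difference 1.13 ± 0.21 SE, limma adjusted p = 0.0024). Leaving out any 1 array kept the difference between 0.96 and 1.31, and without HSC-enriched replicates 3 and 4 it was 1.02 (adjusted p = 0.010). Since the Lin+ mean is at background, the fold depends on that floor.

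The shared beta subunit gene Arnt did not pass the test. It read 8.21, 7.92, 8.04 and 7.86 on Lin+ and 7.83, 7.85, 7.88 and 8.07 on HSC-enriched arrays. The ranges overlapped, with a difference of -0.10 and a 95% interval from -0.35 to 0.15 (limma adjusted p = 0.60).

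Of the oxygen-sensing prolyl hydroxylases, Egln3 alone passed the test, and its difference was the largest among the 10 members. Egln3 read 5.79, 6.50, 6.35 and 6.08 on Lin+ and 8.04, 7.75, 7.93 and 7.94 on HSC-enriched arrays. The lowest HSC-enriched array stood over 1 log2 unit above the highest Lin+ array, and the HSC-enriched arrays were close together. The means were 6.18 ± 0.31 and 7.92 ± 0.12 (SD, n = 4), a 3.33-fold rise (difference 1.73 ± 0.16 SE, limma adjusted p = 1.6e-05). The difference lay between 1.60 and 1.84 with any 1 array left out and was 1.71 without HSC-enriched replicates 3 and 4.

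Egln1, the main oxygen sensor of most cells, read 7.72, 7.68, 7.98 and 7.52 on Lin+ and 7.67, 7.64, 7.72 and 6.89 on HSC-enriched arrays. HSC-enriched replicate 4 was low and the other three lay within the Lin+ range. The difference was -0.25 with a 95% interval from -0.67 to 0.18 (limma adjusted p = 0.42), and -0.05 without replicate 4. Egln2, a mostly nuclear hydroxylase, read 7.43, 7.29, 7.42 and 7.22 against 7.37, 7.55, 7.50 and 7.62. HSC-enriched replicates 2 to 4 were above every Lin+ array and replicate 1 was not, and the difference of 0.17 (95% interval -0.05 to 0.40) did not pass (limma adjusted p = 0.28).

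**Figure D2:**
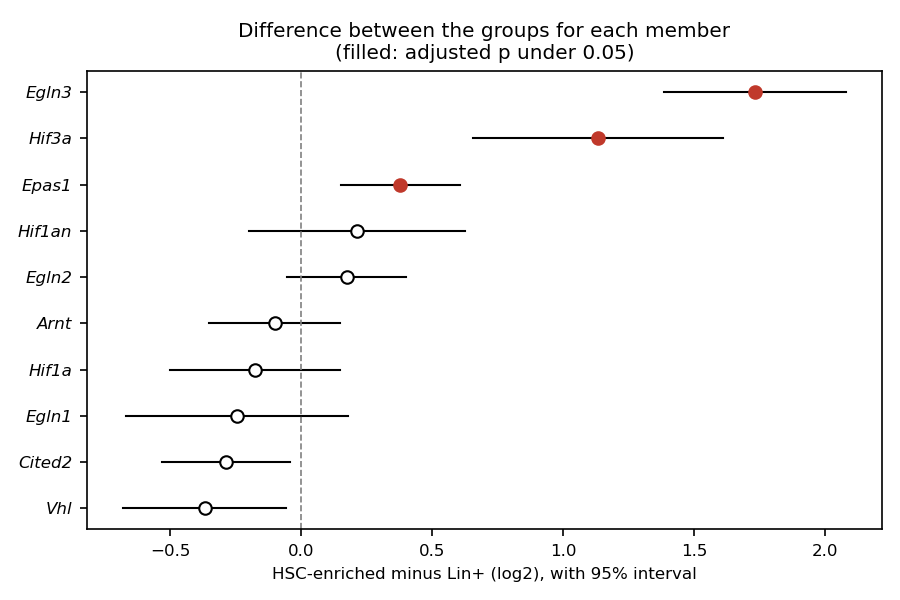
HSC-enriched minus Lin+ difference of each member on the log2 scale, with limma's 95% interval; filled points have an adjusted p under 0.05. Egln3 (1.73), Hif3a (1.13) and Epas1 (0.38) are filled and lie above 0, and the intervals of Vhl and Cited2 lie below 0 without passing after adjustment.

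Of Vhl, Hif1an and Cited2, none passed the test after adjustment with all 8 arrays. Vhl, the substrate receptor of the ubiquitin ligase, read 7.01, 6.95, 7.26 and 6.96 on Lin+ and 7.02, 6.59, 6.64 and 6.44 on HSC-enriched arrays. HSC-enriched replicates 2 to 4 lay below every Lin+ array and replicate 1 within their range. The difference was -0.37 (95% interval -0.68 to -0.06), which did not pass after adjustment (limma unadjusted p = 0.024, adjusted p = 0.079). It did pass without HSC-enriched replicate 1 (-0.49, adjusted p = 0.016), but not without replicates 3 and 4 (-0.24, adjusted p = 0.41).

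Hif1an, the asparaginyl hydroxylase gene, read 5.55, 5.91, 5.75 and 5.58 on Lin+ and 5.35, 5.94, 6.23 and 6.12 on HSC-enriched arrays. Replicate 1 was the lowest and replicates 2 to 4 the highest of the 8 arrays, and the difference was 0.21 (95% interval -0.20 to 0.62, limma adjusted p = 0.49). Without HSC-enriched replicates 3 and 4, which were its highest, the difference was -0.05. Cited2 had 9.94, 10.10, 10.16 and 9.91 on Lin+ and 9.92, 9.60, 9.71 and 9.73 on HSC-enriched arrays. Of the HSC-enriched arrays, 3 lay below every Lin+ array. The difference of -0.29 (95% interval -0.53 to -0.04) did not pass after adjustment (limma unadjusted p = 0.025, adjusted p = 0.082), although it did without HSC-enriched replicate 1 (-0.35, adjusted p = 0.0497).

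Paralogs were then compared within each array, which asks whether one changed more than the other; levels of different probe sets cannot be compared, but their difference can be followed between groups. Over 5 pairs, 4 differed in their change by an exact two-sided permutation test over the 8 arrays, each at p = 0.0286, the smallest that this design can give, or 0.0357 after Benjamini-Hochberg adjustment. Egln3 minus Egln1 was 1.98 higher in HSC-enriched than in Lin+ cells, and Egln3 minus Egln2 was 1.56 higher. Hif3a minus Hif1a was 1.31 higher and Epas1 minus Hif1a 0.56 higher, the latter with Epas1 near background. For these 4 pairs the values of the groups did not overlap. Each set a called member against one not called, so the pairs largely repeat the member calls. Epas1 and Hif3a, both called, were not compared with each other. Egln2 minus Egln1 differed by 0.42 (exact permutation p = 0.057, adjusted p = 0.057) and by 0.18 without HSC-enriched replicate 4, the array with the low Egln1 value.

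**Figure D3:**
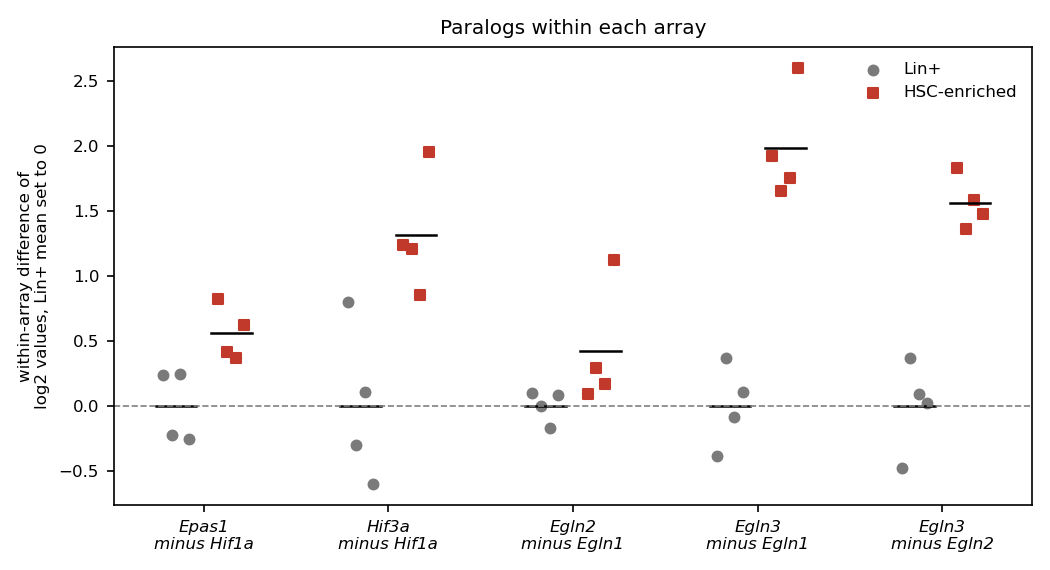
Within-array difference of log2 values for 5 pairs of paralogs, shifted so that the Lin+ mean is 0; each point is an array and each black line a group mean. The HSC-enriched arrays lie above the Lin+ arrays for all pairs but Egln2 minus Egln1, where the groups overlap.

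The calls among partners of the members are read beside the 27.8% of all genes and the 44.5% of genes with a mean above the guide. None of the measured Vhl partners and coactivators had a group mean under the guide. Of 5 measured partners of the Vhl protein in its ubiquitin ligase, 0 passed the test in either direction in this limma fit. Among them were the elongin gene Elob (10.64 ± 0.11 on HSC-enriched against 10.60 ± 0.14 on Lin+ arrays, SD, n = 4) and Nedd8, a modifier of cullins (10.63 ± 0.10 against 10.57 ± 0.10). Of 15 genes that act on HIF protein stability, 2 were higher and 0 lower (13.3% called). The count includes Hsp90aa1, not called, with 3 of the 8 arrays under the guide and an HSC-enriched mean of 4.94. Hspa8, a chaperone gene, rose 1.47-fold (limma adjusted p = 0.0028). Siah1a, a ubiquitin ligase gene, was 1.49-fold higher (limma adjusted p = 0.048) but lost its call when any of 7 of the 8 arrays was left out, and without HSC-enriched replicates 3 and 4 (0.46, adjusted p = 0.23). Mdm2 (-0.28) and Lamp2 (-0.27) did not pass.

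Of 12 coactivator genes 4 were lower and 1 higher (41.7% called). Ncoa3, a nuclear receptor coactivator of the same bHLH-PAS family as the HIFs, fell 1.63-fold (limma adjusted p = 0.00024), and the chromatin remodeller Smarca4 fell 1.59-fold (adjusted p = 0.0058). Apex1, a redox regulator and repair nuclease gene, rose 1.59-fold (adjusted p = 0.0022). Cited4, a relative of Cited2, and Ep300, which encodes the coactivator that Cited2 competes for and is named after its value was seen, were lower by 0.43 and 0.32 (adjusted p = 0.039 and 0.041). The Cited4 call ended when any of 6 of the 8 arrays was left out, and the Ep300 call for 7 of the 8. Without HSC-enriched replicates 3 and 4 they were lower by 0.45 and 0.39 and did not pass (limma adjusted p = 0.081 and 0.077). The number lower was 2 or 3 with any 1 array left out, being 2 without Lin+ replicates 1 or 3 or HSC-enriched replicates 1, 2 or 3, and 2 without HSC-enriched replicates 3 and 4. Crebbp (0.10) and Pkm (-0.12) did not pass.

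In the wider families, 4 of 11 bHLH-PAS relatives passed, 3 higher and 1 lower. In each group 8 of the 11 had a mean under the guide, and 6 lay under it on all 8 arrays. Most of this list therefore gave no usable level, and a gene of it that did not pass cannot be read as unchanged. Ahr, the aryl hydrocarbon receptor and another partner of the Arnt protein, rose 2.10-fold, from 6.06 ± 0.18 to 7.13 ± 0.34 (limma adjusted p = 0.00084). The clock gene Clock rose 1.63-fold while its partner Arntl fell 1.67-fold, and Npas2 was 1.65-fold higher with all 8 arrays under the guide. Arnt2 (0.13, with 7 of the 8 arrays under the guide) and Sim1 (0.14, or -0.19 without HSC-enriched replicates 3 and 4) did not pass. Of 21 related oxygenases, which share the chemistry of the hydroxylases, 5 were higher and 3 lower, or 4 and 1 without HSC-enriched replicates 3 and 4. The lysyl hydroxylases of collagen went opposite ways: Plod2 rose 3.20-fold (3.89 ± 0.05 to 5.57 ± 0.25, adjusted p = 5.9e-06), and Plod3 and Plod1 fell 1.80-fold and 1.55-fold. Jmjd8 and Ogfod3 rose 2.27-fold and 1.69-fold, Hspbap1 fell 2.36-fold with 5 of the 8 arrays under the guide, and Kdm6a (0.23) and Kdm5a (0.17) did not pass. The calls of Plod1, Ogfod3 and Hspbap1 were lost without HSC-enriched replicates 3 and 4 (limma adjusted p = 0.070, 0.063 and 0.079).

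Genes known as HIF targets went in both directions. Of 57 measured, each counted once, 18 were higher and 14 lower, 56.1% called beside 27.8% of all genes, and the median difference was 0.10. For the 45 of these targets with a mean above the guide the share was 57.8%, beside 44.5% of all genes above it. Among 18 genes of glycolysis and its regulation 7 were higher and 4 lower (median -0.06). Pdk1, the kinase that closes pyruvate entry into mitochondria, read 6.41 to 6.77 on Lin+ and 7.52 to 8.45 on HSC-enriched arrays. The groups did not overlap, and the rise was 2.46-fold (limma adjusted p = 0.00037). Aldoc and Pfkl, glycolytic enzyme genes, rose 2.25-fold and 1.94-fold.

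Other genes of the same group fell. Slc16a3, the lactate exporter, read 8.07, 8.79, 8.95 and 8.64 on Lin+ and 5.76, 5.68, 6.00 and 6.07 on HSC-enriched arrays, a 6.64-fold fall (limma adjusted p = 2.8e-06). The groups were far apart and HSC-enriched replicates 3 and 4 were its highest there. Pfkfb4, a regulator of phosphofructokinase, fell 4.63-fold, and the glucose transporter Slc2a3 fell 2.16-fold. Pkm (-0.12) and Ldha (0.29), which make pyruvate and lactate, did not pass, though Ldha did with quantile normalization again (0.39, adjusted p = 0.032).

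**Figure D4:**
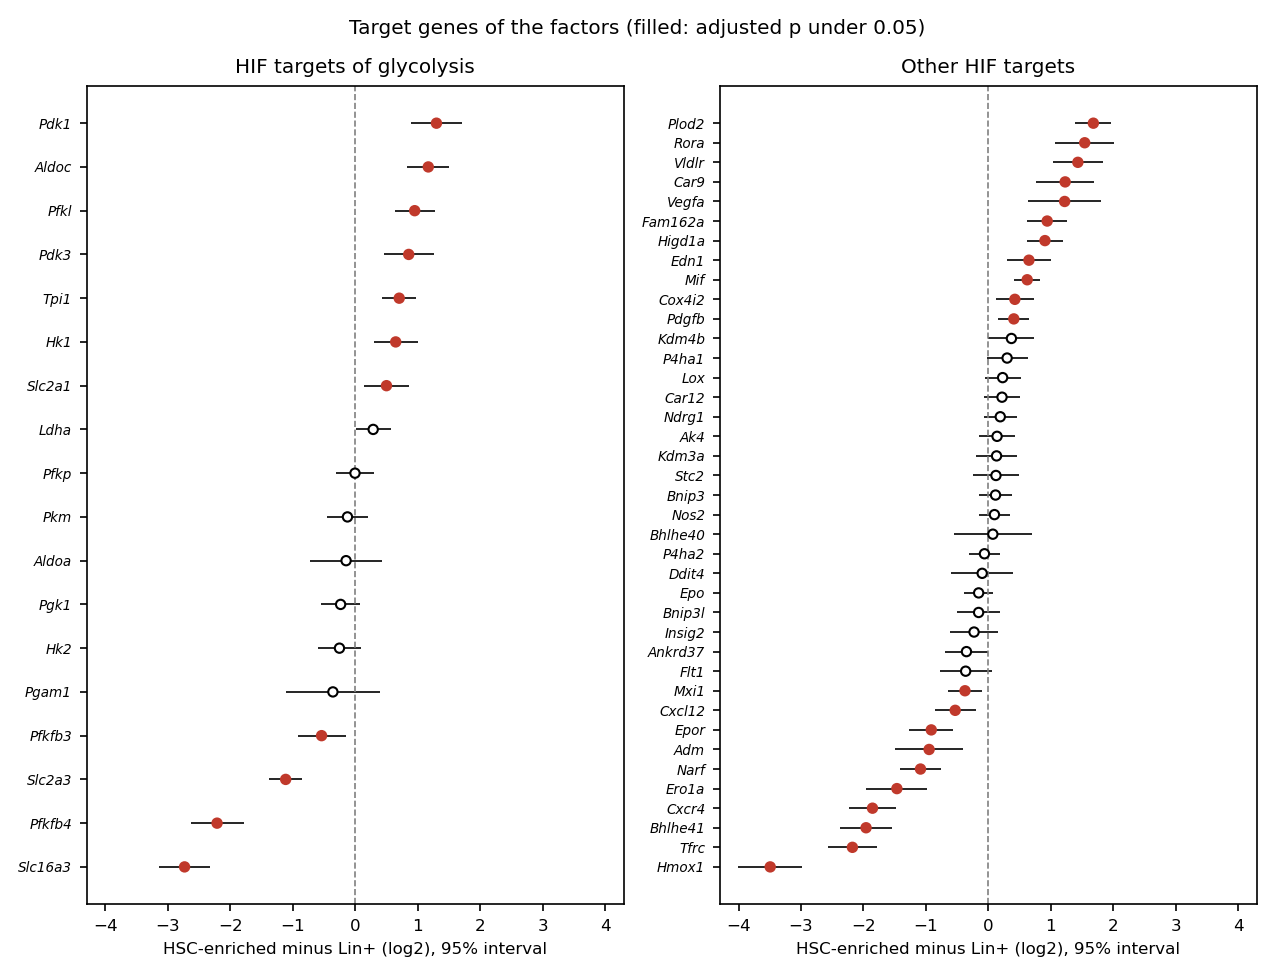
HSC-enriched minus Lin+ difference on the log2 scale for 18 HIF targets of glycolysis (left) and 39 other HIF targets (right), with limma's 95% interval; filled points have an adjusted p under 0.05. Both panels hold genes on either side of 0, from Pdk1 and Plod2 at the top to Slc16a3 and Hmox1 at the bottom.

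Of 39 other targets 11 were higher and 10 lower (median 0.11). After Plod2, the nuclear receptor gene Rora rose 2.91-fold and the lipoprotein receptor gene Vldlr 2.70-fold. Plod2 and Vldlr lay under the guide on the 4 Lin+ arrays, so their folds depend on that floor. Vegfa, the angiogenic growth factor, and Car9, a carbonic anhydrase widely used as a hypoxia marker, are named after their values were seen. Vegfa read 7.06, 7.53, 7.53 and 6.97 on Lin+ and 7.99, 9.27, 8.16 and 8.54 on HSC-enriched arrays, without overlap, a 2.33-fold rise (limma adjusted p = 0.0052). Car9 rose 2.34-fold, from 5.17 ± 0.16, near the guide, to 6.40 ± 0.46 (adjusted p = 0.0012).

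Among the other targets named by rule, Hmox1, Tfrc and Bhlhe41 fell furthest. Hmox1, the haem oxygenase of macrophages, read 8.71, 9.77, 9.48 and 9.73 on Lin+ and 5.95, 5.72, 6.26 and 5.80 on HSC-enriched arrays, an 11.3-fold fall (limma adjusted p = 2.2e-06). Tfrc, the transferrin receptor gene, fell 4.52-fold and Bhlhe41, a transcriptional repressor, 3.89-fold, to a level under the guide. Bhlhe40 (0.07) and the mitophagy receptor Bnip3l (-0.16) did not pass. Beside these values, monocyte and macrophage genes had a mean level of 7.69 to 8.24 on Lin+ against 4.86 to 5.39 on HSC-enriched arrays, and erythroid genes 8.46 to 9.25 against 4.76 to 5.70. In HSC-enriched cells 8 of the 11 monocyte and macrophage genes and 3 of the 8 erythroid genes had a mean under the guide. Mitosis genes, of which 9 of 9 measured were called lower, averaged 9.37 to 9.55 on Lin+ and 7.94 to 8.40 on HSC-enriched arrays. The part of mature cells or of dividing cells in the falls of these targets was not tested. Immediate-early genes, which respond to cell handling, averaged 10.61 to 10.89 on HSC-enriched and 9.12 to 10.39 on Lin+ arrays. Of these 10 genes 5 were called higher, 1 lower and 4 not called, and their part in the rises was not tested.

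The genes with the profile most like a member were sought over the 8 arrays, by the root mean square difference after each gene was centred on its own mean. For Egln3 they were Dapp1 (0.11 log2 units), Prkcq (0.13) and S100a1 (0.15), among 19340 candidates. Dapp1, a signalling adaptor gene, rose from 7.99 ± 0.22 to 9.68 ± 0.10, Prkcq, a protein kinase C gene, from 6.43 ± 0.41 to 8.03 ± 0.12 and S100a1, a calcium-binding protein gene, from 7.17 ± 0.41 to 8.90 ± 0.12. For Hif1a they were Gpatch3 (0.06), Duox2 (0.09) and Nploc4 (0.09). None of the 3 passed the test, with differences of -0.17, -0.09 and -0.19. Duox2 lay under the guide in both group means (4.21 and 4.12). With 8 arrays and this many candidates, such likeness describes these arrays only.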

How the data were processed

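Amplified, biotin-labelled cDNA from total RNA was measured on MouseGene ST arrays of Affymetrix (1 colour). Per the labels' protocols, versions 1.0 and 2.0 were used, without saying for which sample. The authors deposited log2 values (1.66 to 13.1, scale read from the values), made with RMA and Partek, per the submitters' processing notes. No source used here gives the probe set definition or the genome build. Of 24973 probe sets 24015 had 1 symbol, 0 several and 958 none. Symbols were updated by Entrez gene ID through RefSeq for 23922, and the brightest probe set of each symbol was kept, leaving 24011 genes.

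HSC-enriched was compared with Lin+ by limma 3.58.1 (lmFit, eBayes, R 4.3.3) over all genes with no filter, Benjamini-Hochberg adjusted, threshold 0.05. The script was tested on simulated data. Intervals are limma's at 95%. Paralogs were compared by exact permutation tests (scipy 1.17.1). Plots used matplotlib 3.10.9 under Python 3.11.15.

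The members, the 7 pathway lists (of 130 entries, 121 measured) and the alternatives were chosen with earlier results of these data known. Besides the members, the text names in each list up to 3 passing genes with the largest rise, 3 with the largest fall and 2 not passing with the highest level, and for Hif1a and the members with the largest rise and fall the 3 nearest profiles; no member was called lower. Alternatives were median centring, quantile normalization again, filters at the 40th percentile or median, the mean of probe sets, a trend with robust estimates, weighted arrays, a replicate block, each array left out, and HSC-enriched replicates 3 and 4 left out.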

Additional observations from a re-analysis of the deposited data

Results flagged for a closer look

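In groups of 4, a single array stood apart from the other three by Dixon's criterion in 7 of 110 groups of values examined, where chance gives about 1 in 20. Among the members this held for Egln1, at 6.89 on HSC-enriched replicate 4 against 7.64 to 7.72 on the others. Among the genes of the pathway lists, Bhlhe40 was at 9.35 on HSC-enriched replicate 2 against 8.26 to 8.36, and Aldoc at 6.78 on the same array against 7.23 to 7.30. Ogfod3 was at 7.01 on Lin+ replicate 4 against 6.11 to 6.16. Arnt2 at 4.96 and Clock at 6.37 stood apart on Lin+ replicate 3, and Lamp2 at 9.35 on HSC-enriched replicate 1, with gaps of 0.11, 0.19 and 0.19.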

How the results depend on the processing

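Egln3 and Hif3a stayed higher and past the threshold in all 17 alternatives, with differences of 1.60 to 1.84 and 0.96 to 1.31. The mean of probe sets could not change a member, each having 1 probe set, and the filters left the differences as they were. Epas1 lost its call with the replicate block (adjusted p = 0.056) and without HSC-enriched replicates 3 and 4, and the filter at the median removed it. Hif1a, Arnt, Egln1 and Egln2 did not pass in any of the alternatives run, with lowest adjusted p-values of 0.22, 0.42, 0.28 and 0.19, nor did Hif1an (0.053), whose difference ran from -0.05 to 0.40. Vhl passed with quantile normalization again (-0.38, adjusted p = 0.047) and Cited2 with a trend and robust estimates (-0.29, adjusted p = 0.045), so that 1 member was lower in each of these settings. With each array left out in turn, 3 members were higher and 0 to 2 lower, 2 being reached without HSC-enriched replicate 1. Genes called over all genes then numbered 3233 to 3640 higher and 2688 to 2933 lower.

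Deviations of same-numbered arrays correlated at -0.15 to 0.06, and 1 of 4 Lin+ arrays correlated best with its own number. This gave no sign that the replicate numbers pair the samples, but 4 arrays a group cannot settle it. With the replicate block 2 members were higher, 2 coactivators lower and 1 stability regulator higher. Without HSC-enriched replicates 3 and 4 there were 2 coactivators and 1 oxygenase lower and 1 stability regulator higher. Median centring left 1 stability regulator higher, and a trend with robust estimates called 1 lower. With each array left out, the lists gave 1 to 2 stability regulators higher and 2 to 3 coactivators lower. For the 4 called paralog pairs, the exact permutation test gave p = 0.057 with any 1 array left out, and p = 0.133 without HSC-enriched replicates 3 and 4, in each case the smallest that the remaining arrays allow. Neither design can pass the threshold, and the differences kept their sign. Quantile normalization again kept the 4 calls, and the other settings were not run on the pairs. The list genes named by rule gave 673 values over 40 genes, of which 644 kept call and direction. Of the rest, 22 lost and 2 gained a call, 5 uncalled ones changed sign and 0 were reversed. Ep300, Vegfa and Car9, named after their values were seen, were not among the 40. Values near the guide limit Epas1 and the Lin+ level of Hif3a.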

Other observations

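The glycolytic genes Aldoa and Pgam1 lay under the background guide on all 8 arrays, at means of 3.90 and 3.86 in Lin+ and 3.75 and 3.51 in HSC-enriched cells, although glycolysis needs their products in nearly every cell. Their probe sets gave no usable level here, and both stayed in the counts of the glycolysis list.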
